A study of Mus musculus with 45 samples.

Results

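This account follows 10 genes of glutathione synthesis and of the antioxidant response governed by NRF2 through mouse bone marrow-derived macrophages in 3 states of polarization. The genes, Gclc, Gclm, Gsr, Nqo1, Txnrd1, Srxn1, Slc7a11, Prdx1, Nfe2l2 and Keap1, were taken as a named list and matched by symbol to the deposited table of normalised read counts and then by Ensembl identifier to the table of raw counts. All 10 were found, among 29307 genes in the count table, and all 10 passed the filter on low counts that left 12905 genes for testing. Cells came from C57BL/6N mice aged 6 to 10 weeks that carried 1 of 3 alleles of Famin (gene symbol Lacc1), namely Faminp.254I, Faminp.254V or Faminp.284R, written below as 254I, 254V and 284R. FAMIN is a purine enzyme of macrophages. The 254I form is the fully active variant, 254V is a common human variant linked to inflammatory disease, and 284R is a rare variant that causes inherited arthritis, so 254I serves as the reference. The methods of the study state that mice were bred as heterozygotes and that littermates were used. They do not state that the 3 genotypes shared litters. Marrow was cultured for 6 days with the growth factor M-CSF and then kept for 24 h either without stimulus (M0), with interferon-γ and lipopolysaccharide (M1) or with interleukin-4 (M2). Each of the 9 groups of genotype and polarization held 5 libraries of strand-specific mRNA sequencing, 45 in all. Libraries with the same genotype and number were taken as 3 cultures of a single mouse, which gives 15 mice. By the gene annotation of mm10, the set holds Gclc (ENSMUSG00000032350) at chr9:77754535-77794485, Gclm (ENSMUSG00000028124) at chr3:122245557-122270732, Gsr (ENSMUSG00000031584) at chr8:33652523-33698163, Nqo1 (ENSMUSG00000003849) at chr8:107388225-107403206 and Txnrd1 (ENSMUSG00000020250) at chr10:82833951-82897712. The others are Srxn1 (ENSMUSG00000032802) at chr2:152105516-152111376, Slc7a11 (ENSMUSG00000027737) at chr3:49892526-50443614, Prdx1 (ENSMUSG00000028691) at chr4:116685544-116700822, Nfe2l2 (ENSMUSG00000015839) at chr2:75675513-75704641 and Keap1 (ENSMUSG00000003308) at chr9:21229730-21239361. Counts cover each gene as a whole, and Gclm, Txnrd1, Slc7a11 and Keap1 overlap a gene on the opposite strand. Gclm, Gsr, Txnrd1, Slc7a11 and Nfe2l2 overlap an annotated gene on the same strand.

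Glutathione is the main small thiol of the cell. The cystine/glutamate antiporter brings in cystine, glutamate-cysteine ligase joins its cysteine to glutamate, and glutathione reductase returns the oxidized form to the reduced one with electrons from NADPH. NRF2, encoded by Nfe2l2, is a transcription factor that KEAP1 holds in the cytoplasm and marks for degradation. Oxidants and electrophiles modify cysteines of KEAP1, NRF2 then accumulates without any need for more of its mRNA, pairs with a small MAF protein and binds antioxidant response elements near genes such as these. In macrophages NRF2 is known for its part in limiting oxidative damage and inflammatory gene expression.

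Promoter sequences are shown here for 4 genes with such an element upstream of the start, because the genes below are grouped as targets of 1 factor, and for Slc7a11, because its level changed most and its window held other letters. RefSeq (build GRCm38.p6) gave windows from 250 bases before to 50 bases after a start site for 8 of the 10 genes, and Gclc and Gsr had no entry. All 3 motifs below were chosen with results of these data known. The core letters TGACNNNGC were searched on both strands, and 5 of the 8 genes held them, Gclm, Txnrd1, Srxn1, Prdx1 and Nfe2l2, against 14.0% of 27025 genes in the same table. The letters of an ATF4 site, TGATGNAA, were searched on both strands and were found in 1 of the 8 genes, against 4.5% of all genes. That gene was Slc7a11, whose window held the site on each strand. A STAT6 site (TTC and GAA parted by any 4 bases), for the factor activated by interleukin-4, was searched likewise and was in none of the 8 windows, against 8.0% of all genes. No match of 1 motif overlapped a match of another. The 250 bases before the start are printed 5′ to 3′ on the strand of the gene, with matches in capitals. In Gclm, Txnrd1 and Prdx1 the match lies on the opposite strand (TGACGGTGC, TGACAAAGC and TGACTCAGC when read there).
Gclm, chr3:122245307-122245556, plus strand: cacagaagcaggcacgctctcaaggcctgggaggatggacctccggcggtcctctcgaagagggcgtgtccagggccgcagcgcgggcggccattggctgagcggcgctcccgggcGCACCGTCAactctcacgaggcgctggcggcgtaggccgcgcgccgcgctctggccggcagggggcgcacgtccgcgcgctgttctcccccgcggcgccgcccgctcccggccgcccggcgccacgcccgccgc
Txnrd1, chr10:82858956-82859205, plus strand: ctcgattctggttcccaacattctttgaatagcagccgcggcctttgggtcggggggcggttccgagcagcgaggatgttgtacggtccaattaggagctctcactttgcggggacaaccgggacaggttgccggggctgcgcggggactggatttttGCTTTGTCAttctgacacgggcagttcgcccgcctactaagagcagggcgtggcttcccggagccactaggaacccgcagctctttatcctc
Prdx1, chr4:116685349-116685598, plus strand: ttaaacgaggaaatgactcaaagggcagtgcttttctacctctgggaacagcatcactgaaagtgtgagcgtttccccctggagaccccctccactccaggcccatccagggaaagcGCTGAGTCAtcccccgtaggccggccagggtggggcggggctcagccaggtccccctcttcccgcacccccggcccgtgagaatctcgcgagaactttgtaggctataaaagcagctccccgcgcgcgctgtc
Nfe2l2, chr2:75704664-75704913, minus strand: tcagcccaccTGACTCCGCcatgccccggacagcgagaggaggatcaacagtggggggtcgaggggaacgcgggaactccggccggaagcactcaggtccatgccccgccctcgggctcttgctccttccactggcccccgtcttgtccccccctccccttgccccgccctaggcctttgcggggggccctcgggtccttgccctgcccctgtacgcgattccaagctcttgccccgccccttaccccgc
Slc7a11, chr3:50443614-50443863, minus strand: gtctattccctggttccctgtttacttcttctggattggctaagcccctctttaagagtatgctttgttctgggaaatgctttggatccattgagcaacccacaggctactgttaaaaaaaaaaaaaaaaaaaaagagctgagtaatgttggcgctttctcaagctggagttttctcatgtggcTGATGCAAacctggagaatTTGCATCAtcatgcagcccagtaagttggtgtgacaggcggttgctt
In the printed windows the first base of the match lay at position -134 from the start of Gclm, -92 of Txnrd1, -133 of Prdx1 and -240 of Nfe2l2, and the ATF4 letters of Slc7a11 began at -66 and -47. The first 30 bases after the start matched an annotated transcript of the gene in 9 of 10 windows. The start used for Nfe2l2 lies outside the annotated gene, which ends at chr2:75704641, so its position is less certain. The match in Srxn1 (TGACCTAGC, opposite strand) began at position 29, inside the transcribed part. Txnrd1 had 3 windows, and only that at chr10:82858956-82859255 held the element. The windows of Nqo1 and Keap1 held none of the 3 motifs, which says only that these letters are not within them.

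Total counts per library ran from 17239009 to 43740283 (median 27553642). Levels are given as read counts scaled to library size (CPM), which are comparable for 1 gene across libraries but not between genes of unequal length. In bulk RNA, fewer cells of a type and less RNA per cell cannot be told apart. The summed level of 6 macrophage markers was 20900 to 32700 CPM in M0, 10900 to 13900 in M1 and 9440 to 13400 in M2, with no marker at 0. Lyz2 was the largest part of the sum (median 17800 CPM in M0, 5520 in M1 and 5140 in M2). Not every marker followed the sum. Median Fcgr1 was 356 CPM in M0 and 1140 in M1, and median Itgam was 310 in M0 and 359 in M2. All other medians were lower in M1 and M2 than in M0. The M1 marker list summed to 2570 to 6840 CPM in M1 and to at most 171 elsewhere, and the M2 list to 4880 to 14500 CPM in M2 and to at most 949 elsewhere. Within the M1 list, Il12b stayed at or below 0.19 CPM in M1, and Nos2 ranged there from 2.93 to 140 CPM. Markers of other cells moved with polarization as well. The fibroblast list was highest in M0 (17.7 to 91.5 CPM, against 6.19 to 19.5 in M1 and 9.62 to 32.7 in M2), the neutrophil list spanned 20.8 to 205, 28.6 to 94.5 and 13.1 to 55.9 CPM in the same order, and the B cell list, nearly all of it Ighm, was lowest in M2 (1.4 to 16.8). The dendritic cell list was at 0.506 to 1.8 CPM in M0, 5.2 to 11.1 in M1 and 3.91 to 12.6 in M2, so that M0 did not overlap the other states. The gene that made up most of the list differed between M1 and M2. In M1 it was Xcr1 (median 8.03 CPM, against 0.0295 in M0 and 0.0 in M2). In M2 it was Zbtb46 (median 7.27 CPM, against 0.586 in M0 and 0.298 in M1). Flt3, Siglech and Ccr7 stayed at or below 0.655 CPM. Lists of T and NK cells and of erythroid and mast cells stayed at or below 0.625 CPM. The part of these cells in the results below was not tested. The M0 library of 254I replicate 4 stood apart from the other 14 M0 libraries, with 266 CPM of Lacc1 (97.6 to 199 in the others), 140 CPM of Irf1 (83.5 to 123) and low levels of all 8 enzyme and transporter genes followed here, so values without it are given where it matters.

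Per kilobase of exon (all annotated exons of a gene merged), the genes differed widely in level. In M0 the mean was 556 CPM per kb for Prdx1, a peroxiredoxin that reduces hydrogen peroxide, 101 for Srxn1, the sulfiredoxin that restores over-oxidized peroxiredoxins, and 71.8 for Nfe2l2. Txnrd1, the cytosolic thioredoxin reductase, stood at 42.4, Gsr, glutathione reductase, at 27.2, and Gclm and Gclc, the modifier and catalytic subunits of glutamate-cysteine ligase, at 22.4 and 15.2. Keap1 lay beside Gclc at 15.4. Nqo1, a quinone reductase often used as a readout of NRF2, was low at 4.08 and Slc7a11, the cystine-importing subunit of the antiporter, lowest at 0.433 CPM per kb.

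**Figure D1:**
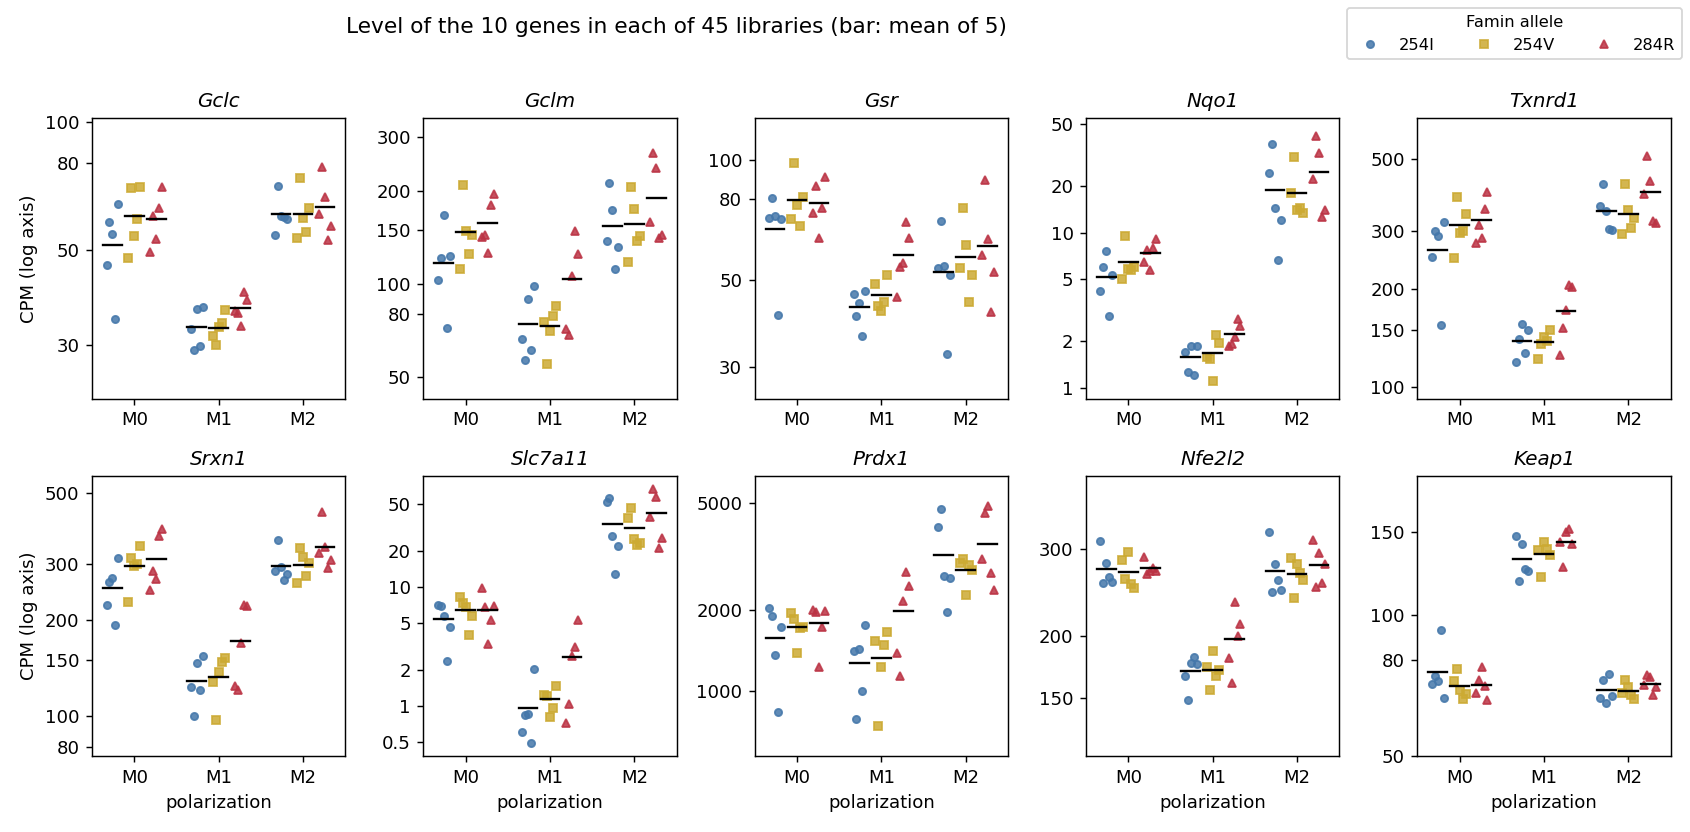
Level of each gene in CPM (log axis) in the 45 libraries, by polarization and genotype. Each point is 1 library and each bar the mean of 5. The M1 libraries of Nqo1 (1.10 to 2.76 CPM) lie below every M0 library, those of Keap1 (118 to 152 CPM) above, and the M2 libraries of Slc7a11 (12.9 to 66.5 CPM) above every M0 library.

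M1 polarization lowered most of the set. Relative to M0, 8 of the 10 genes fell, Keap1 rose and Prdx1 did not pass the test (edgeR quasi-likelihood test, Benjamini-Hochberg adjustment over 12905 genes, mean over the 3 genotypes). At the same threshold 77.3% of all genes were called in this comparison, 37.0% higher and 40.3% lower, so a call by itself says little here. The median log2 change over the 10 genes was -0.75, against -0.03 over all genes tested.

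The cystine importer changed most. Slc7a11 was 2.39, 6.72 and 9.83 CPM (lowest, median and highest of 15 libraries) in M0 and 0.489, 1.04 and 5.29 CPM in M1. Its M1 libraries rested on 13 to 108 counts each, and the ranges overlapped through 284R libraries at 2.64, 3.1 and 5.29 CPM. Without the M0 library of 254I replicate 4 (2.39 CPM), the lowest M0 library was at 3.34 CPM, and only the M1 library at 5.29 CPM overlapped. The fall was 4.35-fold (log2 change -2.12 ± 0.26 SE, adjusted p = 2.3e-09, edgeR), and the M1 culture was the lower in 15 of 15 mice.

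The enzymes of glutathione itself fell less. Gclc was 34.5, 58.3 and 70.5 CPM in M0 and 29.2, 33.9 and 40.0 in M1, a 1.67-fold fall (-0.74 ± 0.07, edgeR adjusted p = 3.6e-12). Gclm was 72.1, 142 and 209 CPM in M0 and 55.0, 75.2 and 149 in M1, 1.70-fold lower (-0.76 ± 0.13, edgeR adjusted p = 2e-06). Gsr was 40.6, 73.7 and 98.3 CPM in M0 and 36.1, 46.0 and 69.9 in M1, 1.55-fold lower (-0.63 ± 0.10, edgeR adjusted p = 5.1e-07). The ranges of all 3 genes overlapped between M0 and M1, yet each was lower in the M1 culture of every one of the 15 mice. The overlap of Gclc rested on the M0 library of 254I replicate 4 (34.5 CPM), as the next lowest M0 library held 46.3 CPM.

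The thioredoxin branch was divided. Txnrd1 was 155, 300 and 394 CPM in M0 against 120, 143 and 205 in M1, 2.01-fold lower (edgeR adjusted p = 1.5e-13). Srxn1 was 193, 285 and 385 CPM against 97.0, 137 and 223, 1.99-fold lower (edgeR adjusted p = 1e-12). Prdx1, whose product they help to keep reduced, was 833, 1730 and 2030 CPM in M0 and 742, 1430 and 2770 in M1. Its log2 change of -0.18 had a 95% interval from -0.46 to 0.11 (edgeR adjusted p = 0.27), and it was lower in M1 in 9 of 15 mice. Nqo1 fell from 2.89, 6.01 and 9.50 CPM to 1.10, 1.85 and 2.76 CPM without overlap, 3.49-fold (-1.80 ± 0.21, edgeR adjusted p = 4.3e-10).

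The factor and its inhibitor moved in opposite directions. Nfe2l2 was 250, 270 and 311 CPM in M0 and 149, 176 and 234 in M1, 1.52-fold lower (-0.61 ± 0.05, edgeR adjusted p = 5.1e-15). Keap1 was 65.9, 71.0 and 92.7 CPM in M0 and 118, 138 and 152 in M1, 1.88-fold higher (0.91 ± 0.04, edgeR adjusted p = 2.2e-23). Neither gene's 15 M1 libraries overlapped its 15 M0 libraries. With Nqo1 they made 3 of 10 genes without overlap, where 28.6% of all genes showed none. Without the M0 library of 254I replicate 4, Gclc (M0 from 46.3 CPM, M1 to 40.0) and Txnrd1 (M0 from 248 CPM, M1 to 205) did not overlap either. The share over all genes without that library was not counted. All values are mRNA levels, and NRF2 protein was not measured in these libraries.

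The same 9 genes were called for M1 against M0 within 254I, within 254V and within 284R, where 60.0%, 62.5% and 63.4% of all genes were called. Slc7a11 fell 5.78-fold in 254I, 5.55-fold in 254V and 2.57-fold in 284R. The interaction of 284R with M1 for Slc7a11 was 1.17 ± 0.65 on the log2 scale and did not pass the test. In 284R, Gclm, Gsr and Slc7a11 lost their calls without replicate 1 (6 of 10 called), and Gclm and Gsr without replicate 2 or 5 (7 called each). In 254I, Gclm lost its call without replicate 2 or 3 (8 called each).

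**Figure D2:**
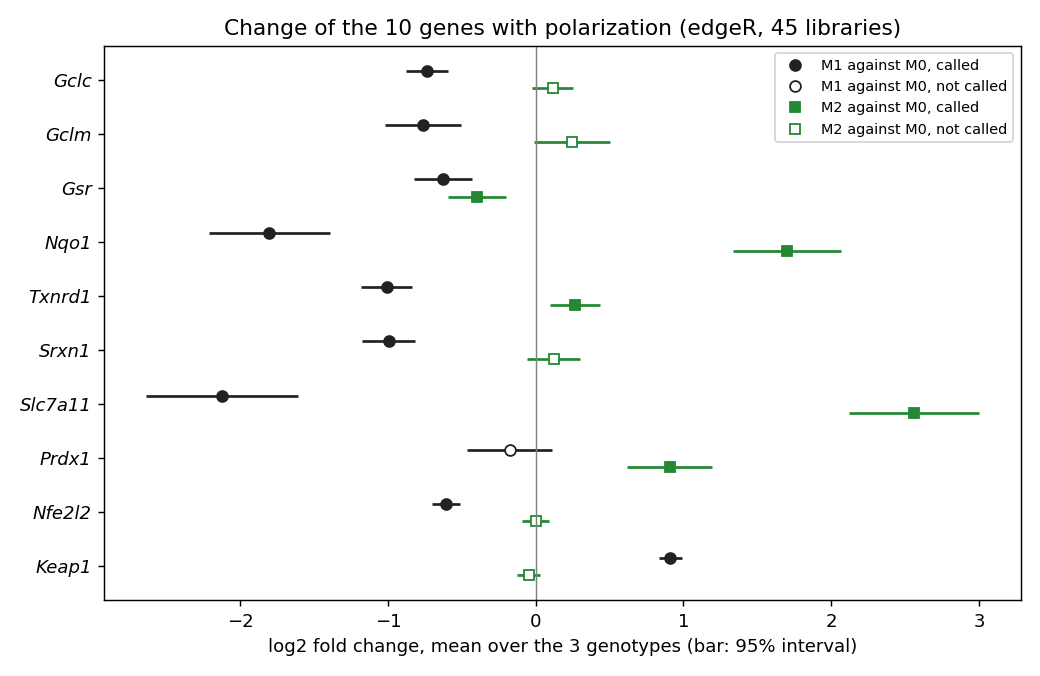
log2 fold change of each gene against M0, mean over genotypes, from the edgeR fit over all 12905 genes (circles M1, squares M2, filled where called, lines 95% intervals). Slc7a11 shows the largest fall in M1 (-2.12) and the largest rise in M2 (2.56), and Keap1 is the only one of the 10 that rose in M1.

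M2 polarization raised 4 of the 10 genes. Against M0, Slc7a11, Nqo1, Prdx1 and Txnrd1 rose, Gsr fell, and 5 genes did not pass the test, where 76.4% of all genes were called (36.8% higher, 39.6% lower). The median log2 change was 0.18, against -0.03 over all genes.

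Slc7a11 was 12.9, 26.9 and 66.5 CPM in M2, above all 15 M0 libraries, 5.90-fold higher (2.56 ± 0.22, edgeR adjusted p = 3.9e-13). It was the only one of the 10 genes whose M2 and M0 libraries did not overlap, a pattern that 23.4% of all genes showed. Nqo1 was 6.68, 14.4 and 42.1 CPM in M2, 3.25-fold higher (1.70 ± 0.19, edgeR adjusted p = 1.3e-10). Prdx1 was 1970, 2930 and 4850 CPM, 1.88-fold higher (0.91 ± 0.15, edgeR adjusted p = 7.6e-07). All 3 were higher in M2 than in M0 in 15 of 15 mice.

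Txnrd1, at 295, 347 and 511 CPM in M2, was 1.20-fold higher (0.26 ± 0.09, edgeR adjusted p = 0.0061). Gsr went the other way, at 32.5, 53.5 and 89.1 CPM, 1.32-fold lower (-0.40 ± 0.10, edgeR adjusted p = 0.00051), and was lower in 14 of 15 mice. The subunits of the ligase had log2 changes of 0.12 (Gclc, edgeR adjusted p = 0.13) and 0.25 (Gclm, 0.084), and Srxn1 one of 0.12 (0.22). Nfe2l2 and Keap1 had log2 changes of -0.00 and -0.05 (edgeR adjusted p = 0.98 and 0.26).

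Within a genotype, 4 genes were called for M2 against M0 in 254I (60.6% of all genes), 4 in 254V (57.4%) and 3 in 284R (59.9%), with Slc7a11, Nqo1 and Prdx1 in all 3. The call of Txnrd1 in 254I was lost without replicate 1, 2 or 4, with only the libraries compared (3 called each), and without the M0 library of 254I replicate 4, where Gsr was called in its place (4 called). With a replicate block, Gclc and Gsr were added in 254I (6 called) and Gsr in 284R (4 called), but without 254I replicate 4 the block added Gsr and not Gclc in 254I (5 called).

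Set directly against each other, M1 and M2 differed in all 10 genes, where 79.1% of all genes were called (39.0% higher, 40.1% lower in M1). Slc7a11 was 25.7-fold and Nqo1 11.4-fold lower in M1 (log2 -4.68 ± 0.26 and -3.51 ± 0.21). Txnrd1 (-1.27), Srxn1 (-1.12), Prdx1 (-1.08), Gclm (-1.01), Gclc (-0.85) and Nfe2l2 (-0.61) were lower as well, and Keap1 was higher (0.96 ± 0.04). The 15 M1 and 15 M2 libraries did not overlap for 7 of the 10 genes, Gclc, Nqo1, Txnrd1, Srxn1, Slc7a11, Nfe2l2 and Keap1, against 35.7% of all genes. Gsr had the smallest difference (-0.23, edgeR adjusted p = 0.035), and its call was lost with limma-voom (0.071), without a count filter (0.071) and without any of 7 single mice, 254I replicates 1 and 2, 254V replicates 2 and 3, and 284R replicates 1, 2 and 3 (0.051 to 0.15). M0 libraries serve both of the preceding comparisons, which are therefore not independent.

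The wider pathway was read from 8 lists of 86 genes, of which 82 could be tested. Their counts are to be read against the shares over all genes given above, 37.0% higher and 40.3% lower in M1, and 36.8% higher and 39.6% lower in M2, and no list was tested as a whole. In M1, other NRF2 targets fell in 12 of 15 and rose in 2 (median log2 change -0.82), and glutathione S-transferases, which attach glutathione to electrophiles, fell in 11 of 16 and rose in 2 (median -0.83). Hmox1, the heme-degrading oxygenase, went from 988 ± 320 to 298 ± 99.8 CPM (mean ± SD, n = 15), a log2 change of -1.74. Gsta3 (2.92 to 0.107 CPM, -4.74) and Idh1, a source of NADPH (452 to 108 CPM, -2.06), also fell, as did Bach2, a repressor related to Bach1 (3.05 to 0.314 CPM, -3.23), and Sesn1, a sestrin (386 to 101 CPM, -1.94).

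Not every antioxidant gene followed. Thioredoxins and peroxiredoxins rose in 8 of 13 and fell in 5 in M1 (median 0.21), among them Txn1, the cytosolic thioredoxin (171 ± 12.8 to 873 ± 83.2 CPM, log2 change 2.35), and Prdx5 (215 to 802 CPM, 1.88). The other genes of glutathione synthesis and turnover rose in 5 of 9 and fell in 2 (median 0.41), glutathione peroxidases and glutaredoxins rose in 3 and fell in 4 of 8 (-0.28), superoxide dismutases and catalase rose in 1 and fell in 2 of 4 (-0.23), NADPH enzymes rose in 2 and fell in 3 of 6 (-0.22), and partners of NRF2 rose in 4 and fell in 5 of 11 (-0.04). Sod2, the mitochondrial superoxide dismutase, rose from 57.3 ± 6.42 to 119 ± 67.1 CPM (0.96), while Cat, catalase, fell from 554 to 207 CPM (-1.42). The M1 libraries of Sod2 ran from 68.3 to 260 CPM. They were higher in 284R than in 254I (log2 1.10) and 254V (1.06), so the mean rise of Sod2 does not describe each genotype.

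In M2, glutathione S-transferases fell in 10 of 16 and rose in 2 (median -0.40), other NRF2 targets rose in 7 and fell in 5 of 15 (-0.04), glutathione synthesis and turnover rose in 3 and fell in 4 of 9 (-0.21), peroxidases and glutaredoxins rose in 3 and fell in 2 of 8 (0.06), thioredoxins and peroxiredoxins rose in 6 and fell in 6 of 13 (0.08), superoxide dismutases and catalase rose in 1 and fell in 2 of 4 (-0.13), NADPH enzymes rose in 2 and fell in 3 of 6 (-0.09), and NRF2 partners rose in 4 and fell in 4 of 11 (-0.05). Gss, glutathione synthetase (14.1 to 24.7 CPM, log2 change 0.81), and Tkt, transketolase of the pentose phosphate pathway (413 to 819 CPM, 0.99), rose. Bach1, a repressor at antioxidant response elements, fell (207 to 139 CPM, -0.58). Gpx3, a secreted glutathione peroxidase, fell in both states, from 26.9 CPM in M0 to 5.79 in M1 and 4.42 in M2 (-2.22 and -2.62). Ephx1, microsomal epoxide hydrolase, fell in M1 (95.5 to 40.3 CPM, -1.27) and rose in M2 (159 CPM, 0.73).

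Over all 45 libraries, the genes most like each member were found by Pearson's r of log2(CPM + 1), a description that shares polarization, library and depth. Gclc, Txnrd1 and Srxn1 were among one another's closest genes (r = 0.955 to 0.971). Slc7a11 was closest to Plaur (0.974) and Nqo1 to Slc7a11 (0.967). Gclm was closest to Pgd (0.95), Nfe2l2 to Igf2r (0.942) and Keap1 to Ogfr (0.992). Gsr was closest to Gas2 (0.844) and then to its neighbour Ubxn8 (0.817), and Prdx1 to its neighbour Akr1a1 (0.933).

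The study compared the Famin genotypes within each polarization. No gene of the set was called between genotypes in any polarization, on their mean, or in any interaction (edgeR, adjusted), under any of the 28 settings tried. The setting with each mouse as a fixed term covered polarization and interactions but not differences between genotypes. Over all genes, calls between genotypes within a polarization reached at most 0.263% (284R against 254I in M1), with 0.0775% for 284R against 254V in M1, 0.00775% for 284R against 254I in M2 and 0.0% in the others and in every interaction. Between 284R and 254I on the mean over polarizations, 0.0155% of all 12905 genes (2 genes) passed the adjusted threshold. Before adjustment, p was under 0.05 for 565 genes, 7 of the 10 among them. All 10 fitted differences were above 0, with a median of 0.30 on the log2 scale against -0.00 over all genes.

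**Figure D3:**
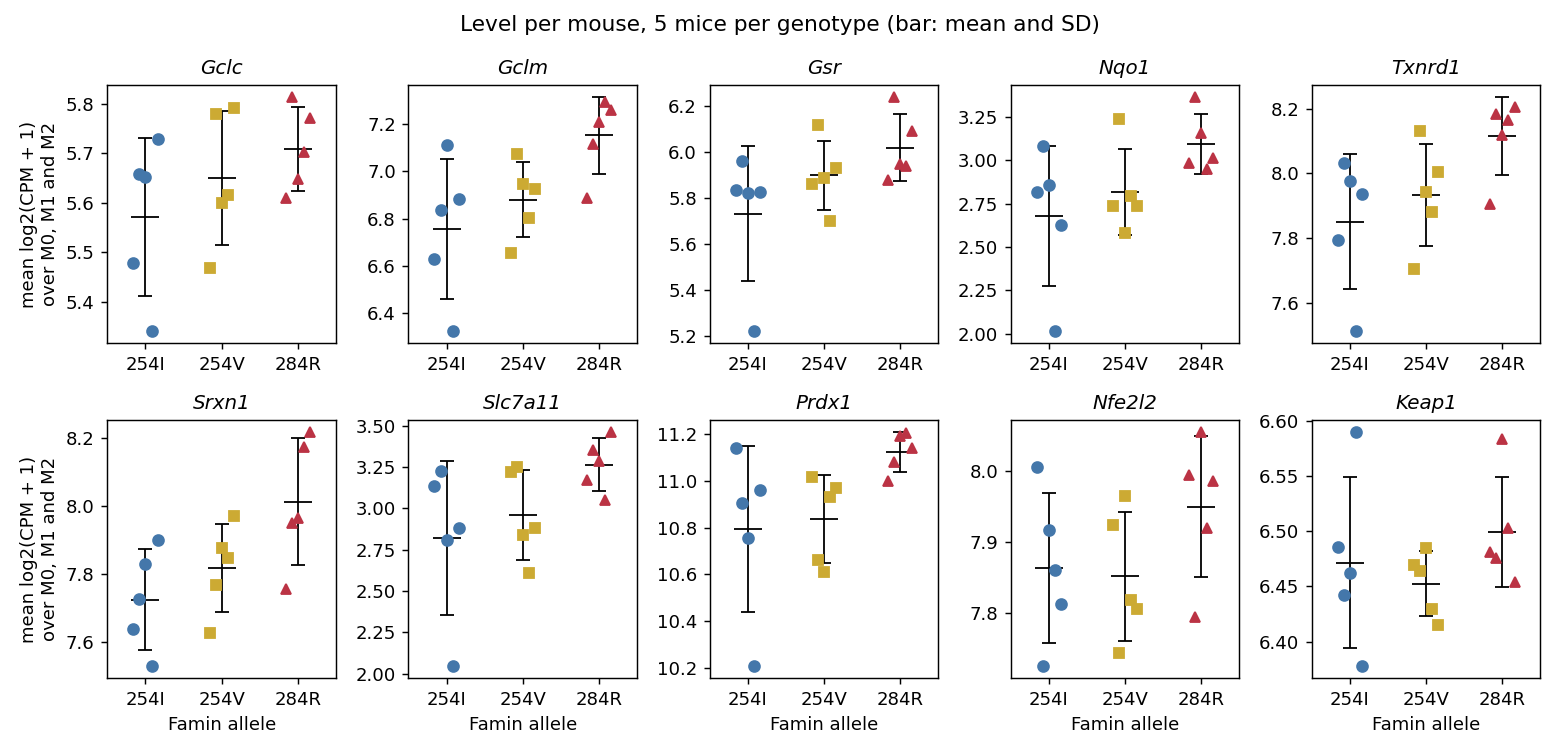
Mean log2(CPM + 1) of each mouse over its 3 cultures, by genotype, with each group's mean and SD (n = 5 mice each). For Gclm, 4 of the 5 mice of 284R lie above every 254I mouse, and 254I replicate 4 is the lowest of the 15 mice for all 8 enzyme and transporter genes.

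Per mouse, Gclm was 6.63, 6.84, 7.11, 6.32 and 6.88 in 254I, 6.66, 7.07, 6.95, 6.80 and 6.93 in 254V, and 6.88, 7.12, 7.21, 7.29 and 7.26 in 284R (mean log2(CPM + 1) over 3 cultures, replicates 1 to 5). Here 4 of the 5 mice of 284R lay above every 254I mouse. The exact permutation test over mice (two-sided, smallest possible p = 0.0079) gave p = 0.024 for Gclm, 0.032 for Gsr and Txnrd1, 0.040 for Nqo1, Srxn1 and Prdx1, and 0.048 for Slc7a11, unadjusted. That made 7 of 10 genes, where 2.43% of all genes reached the same p, and over all genes every adjusted exact p was 1.0. For 254V against 254I the exact test gave 0 of 10 genes (1.05% of all genes) and for 284R against 254V 2 of 10, Gclm (0.040) and Prdx1 (0.016), where 4.15% of all genes did. The test shuffles mice without regard to their number, while libraries with the same number resembled each other between genotypes. Counted after these values were seen, 284R was above 254I in all 5 same-numbered pairs for 6 of the 10 genes, Gclm, Gsr, Nqo1, Txnrd1, Srxn1 and Slc7a11, where 3.64% of all genes were higher in all 5. For 284R against 254V this held for 7 of 10 genes (5.73% of all genes) and for 254V against 254I for 2, Gsr and Slc7a11 (4.29%). With 5 pairs, an exact paired test cannot go below p = 0.0625.

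The 7 genes vary together among mice, so they are not 7 separate observations, and the count moved with single mice. It was 1 (Gclm) without 284R replicate 2, 3 or 5, 2 without 284R replicate 4 or 254I replicate 4, and 4 without 284R replicate 1 or 254I replicate 1 or 5. Between 284R and 254V it was 5 without 254V replicate 2, 4 without 284R replicate 1 and 1 (Prdx1) without 284R replicate 3 or 4 or 254V replicate 4 or 5. The fitted difference of Slc7a11 was 0.66 with all mice, 0.60 without the M0 library of 254I replicate 4 and 0.47 without that mouse, and that of Gclm 0.40, 0.36 and 0.30.

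In M1, Slc7a11 was 0.600, 0.841, 0.845, 0.489 and 2.05 CPM in 254I, 1.24, 1.22, 0.799, 0.959 and 1.46 in 254V, and 0.712, 1.04, 2.64, 3.10 and 5.29 in 284R. The 284R mice were spread most, with 3 of 5 above every 254I mouse. The fitted difference between 284R and 254I was 1.42 ± 0.52 (edgeR adjusted p = 0.44, with 0.263% of all genes called). Nqo1 in M1 was 1.69, 1.26, 1.85, 1.20 and 1.85 CPM in 254I and 1.86, 1.91, 2.13, 2.76 and 2.49 in 284R, so all 5 mice of 284R lay above every 254I mouse, the lowest of them (1.86) next to the highest of 254I (1.85). The exact permutation p was 0.0079 for Nqo1, the smallest possible, and 0.024 for Gsr, which made 2 of 10 genes with an unadjusted exact p under 0.05, where 4.32% of all genes had one. Adjusted over all genes, the smallest exact p for this comparison in M1 was 0.87. The fitted differences were 0.516 ± 0.393 for Nqo1 (edgeR adjusted p = 0.92) and 0.435 ± 0.175 for Gsr (edgeR adjusted p = 0.57). Of the pathway lists, Sod2 alone was called between genotypes, higher in 284R M1 than in 254I (log2 1.10, edgeR adjusted p = 0.0052) and than in 254V (1.06, 0.013).

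Within groups, the 8 enzyme and transporter genes varied together from library to library. After subtraction of each group's mean, Pearson's r among their 28 pairs was 0.371 to 0.860 (median 0.726) over the 45 libraries, which share depth, mouse and replicate number. Keap1 had r of -0.189 to 0.105 and Nfe2l2 of -0.275 to 0.340 with the same 8 genes. The replicate number went with the level. In M2, replicate 2 was the highest of 5 in 23 of 24 gene-by-genotype groups and replicate 4 the lowest in 14, and in M1 replicate 5 was the highest in 15. What a number shares between genotypes is not stated in the labels.

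**Figure D4:**
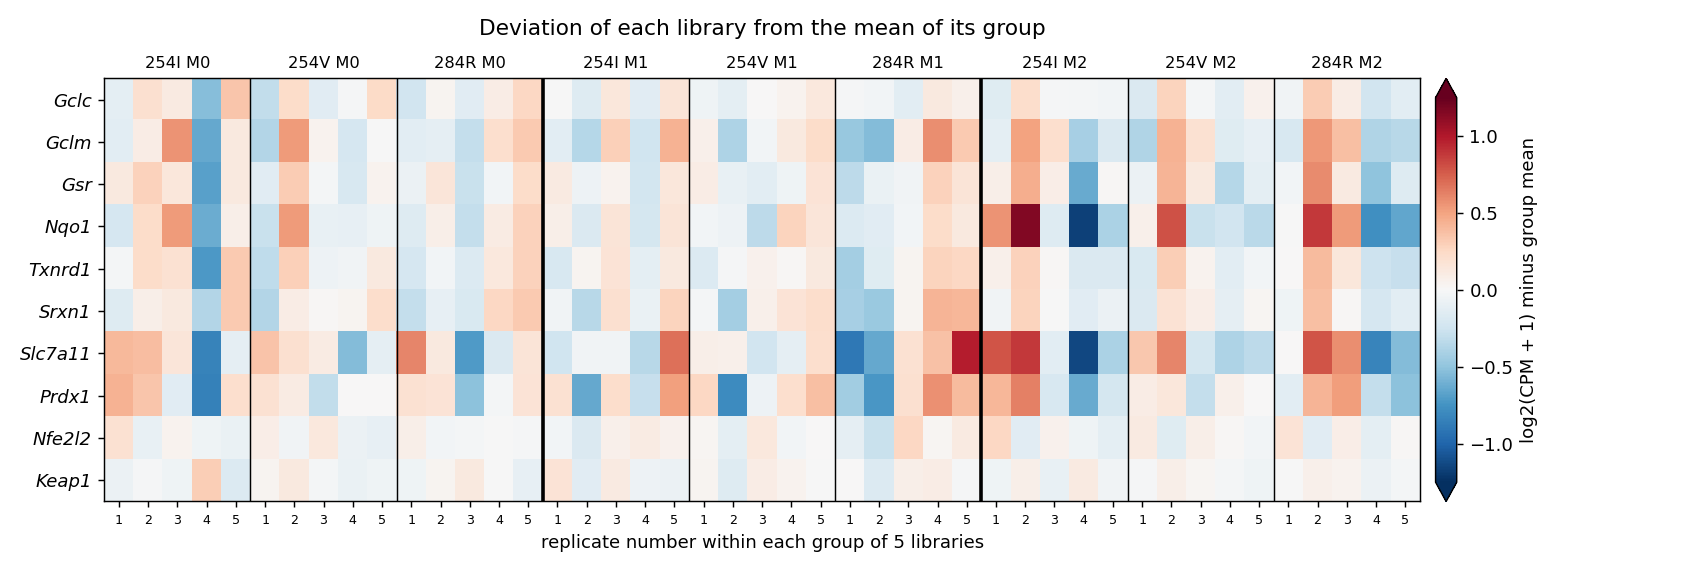
Heat map of each gene (rows) in each of the 45 libraries (columns, by group and replicate number), coloured by log2(CPM + 1) minus the mean of the group of 5, red above and blue below. Averaged over the 8 enzyme and transporter genes, the M2 libraries of replicate 2 lay 0.553, 0.397 and 0.541 above their group mean in 254I, 254V and 284R, and the M0 library of 254I replicate 4 lay at -0.655, while the rows of Nfe2l2 and Keap1 stay pale.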

How the data were processed

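RNA of 45 macrophage cultures was sequenced by the authors as strand-specific single-end reads. The submitters' notes name FastQC, Trim Galore, HISAT2, limma and the mm10 build, and the series text names Cutadapt and STAR; the counting tool, annotation and use of strand are not given in the sources used here. Gclm, Txnrd1, Slc7a11 and Keap1 overlap a gene on the opposite strand, and Gclm, Gsr, Txnrd1, Slc7a11 and Nfe2l2 overlap one on the same strand. The authors deposited raw counts per gene and, for 11900 genes, CPM, from which whole reads were recovered for 100% of values (tolerance 0.01), all equal to the deposited counts.

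Counts were fitted with edgeR 4.0.16 in R 4.3.3 (filterByExpr, TMM, robust quasi-likelihood, 9 groups), with a threshold of 0.05 on adjusted p, and intervals are 95%. The script was tested on simulated data. Alternatives used DESeq2 1.42.0, limma 3.58.1, other filters, replicate blocks and each mouse left out. The genes, pathway lists and motifs were chosen with earlier results of these data known. Named genes were all 10 members, at most 2 called genes with the largest rise and 2 with the largest fall per list and comparison, of which a few are printed, the 3 genes most like each member, and any gene of a list called between genotypes. Cultures with the same genotype and number were taken to come from the same mouse, since the series text gives 5 mice per genotype. Their deviations correlated between polarizations over 8404 genes at over 0.1 in 11 of 15 pairs in 254I (-0.134 to 0.635), 15 of 15 in 254V (0.126 to 0.557) and 11 of 15 in 284R (-0.194 to 0.496). Between genotypes, the same-numbered libraries gave correlations from 0.123 to 0.878 within M0, from 0.301 to 0.879 within M1 and from -0.441 to 0.791 within M2, of which 15, 15 and 13 of 15 exceeded 0.1. The fit treated the 3 cultures taken as 1 mouse as independent, and the blocked fits did not. The low counts of Slc7a11 and Nqo1 in M1 make these the least precise levels.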

Additional observations from a re-analysis of the deposited data

Results flagged for a closer look

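In 90 groups of 5 libraries, 5 held 1 library far from the other 4 by Dixon's criterion, and chance alone flags about 1 in 20 groups. In 254I M0, replicate 4 was the lowest for Gsr (40.6 CPM, the others 71.2 to 80.4) and the highest for Keap1 (92.7 CPM, the others 66.5 to 74.1). In 254V, replicate 2 was the highest for Nqo1 both in M0 (9.50 CPM, the others 4.99 to 6.01) and in M2 (30.7 CPM, the others 13.4 to 18.1). In 254I M1, replicate 5 was the highest for Slc7a11 (2.05 CPM, the others 0.489 to 0.845).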

How the results depend on the processing

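The mean comparisons of M1 with M0 (9 called), M2 with M0 (5) and M1 with M2 (10) kept their counts within 1.5 times under every alternative run, including a replicate block, which with all mice changed no call besides the genes added for M2 against M0 within 254I and 284R. For M2 against M0 within 284R, 5 genes were called with a replicate block without 254I replicate 4, an alternative chosen after seeing the data, against 3. Small values changed sign. Nfe2l2 in M2 against M0 was 0.0049 with only the libraries compared, 0.0015 without the M0 library of 254I replicate 4 and 0.0066 with the block without that mouse, and -0.0094 to 0.0166 with single mice left out. For 254V against 254I, the block without that mouse gave -0.0142 for Nqo1, -0.0029 for Txnrd1, -0.1423 for Prdx1 and 0.0136 for Keap1, the absence of that M0 library gave -0.0509 for Prdx1 and 0.0077 for Keap1, and no count filter gave -0.0033 for Prdx1. With single mice left out these differences ran from -0.0444 to 0.2355 for Nqo1, -0.0411 to 0.2527 for Slc7a11, -0.1225 to 0.0821 for Prdx1, -0.0485 to 0.0244 for Nfe2l2 and -0.0438 to 0.0101 for Keap1. Genes called numbered 8 to 9 in 254I and 6 to 9 in 284R for M1 against M0, 3 to 5, 3 to 4 and 3 to 4 in 254I, 254V and 284R for M2 against M0, 5 to 6 for their mean and 9 to 10 for M1 against M2. The exact test over mice gave 1 to 7 genes for 284R against 254I and 1 to 5 for 284R against 254V. The cause of these changes was not tested. Depth limits Slc7a11 most, at 13 to 108 counts per library in M1.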
